A study of Mus musculus with 15 samples.

Results

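UO126, a small molecule that blocks the kinase MEK, was compared with its vehicle DMSO in primary chondrocytes, the cells that build cartilage. The comparison holds 6 of the 15 arrays of the series, 3 per group, and every gene on them. The cells came from the tibiae, femurs and humeri of wild-type CD1 mouse embryos at embryonic day 15.5, grew in monolayer and received 10 µM UO126 in DMSO or DMSO alone for 24 hours. The remaining arrays, 3 each, came from cells given LY294002 (10 µM), which blocks the lipid kinase PI3K, SB202190 (10 µM), usually described as an inhibitor of p38 kinases, or trichostatin A, which blocks histone deacetylases. No group carried a genetic change, and the cultures were not sorted, so cells other than chondrocytes from the same bones may be in them. In such bulk RNA, fewer cells of a type and less RNA per cell cannot be told apart. Each Affymetrix array gave a signal for 45101 probe sets, scaled by the authors to the same trimmed mean of 150 on each array. The median signal was 34.0 to 39.96 in DMSO and 34.1 to 38.4 with UO126, and between 42.5% and 44.96% of probe sets reached 50 on these arrays. Arrays correlated across probe sets within a group with r of 0.967 to 0.976, which is a description of the arrays. All 10 chondrocyte markers looked for were measured, at summed signals of 22300 to 34903 in DMSO and 31469 to 43687 with UO126.

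MEK is the only well-known activator of ERK, the last kinase of a cascade that runs from growth factor receptors through Ras and Raf. Active ERK switches on transcription factors of the Ets and AP-1 families, and with them a set of brakes on the cascade itself, such as the DUSP phosphatases and the Sprouty and Spred proteins. In cartilage the cascade carries signals of FGF receptors and of EGF-type ligands, and is known as a regulator of chondrocyte differentiation. The arrays measure RNA only, so the activity of MEK and ERK was not measured here.

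With UO126, 405 of 11751 genes passed the threshold, which is 3.45% of the genes tested. Of these, 221 were higher (1.88%) and 184 lower (1.57%). A gene is given here by the probe set with its highest mean signal, and the threshold is an adjusted p of 0.05 in limma with Benjamini-Hochberg adjustment. Changes were mostly small: 74 of the genes changed at least 2-fold, 27 upward and 47 downward, and the median log2 change over all genes was 0.01. Counted as probe sets, 584 of 21765 passed, 297 higher and 287 lower. The count depended on single arrays, falling to 377 without DMSO 2, 381 without DMSO 3, 359 without UO126 2 and 321 without UO126 3. Same-numbered arrays of DMSO and UO126 deviated together from their group means. With that number as a block the count was 1032, and all 584 calls remained.

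Changes were ranked among called genes whose brighter group averaged 200 or more and whose groups did not overlap. Of these, the largest rise was that of Igfbp2 and the largest fall that of Il1rn. Called genes at lower signals, such as Arc, were not ranked. Igfbp2, a binding protein that holds insulin-like growth factors, gave signals of 203, 258 and 263 on DMSO arrays 1 to 3 and of 466, 904 and 702 on UO126 arrays 1 to 3. Every UO126 array lay above every DMSO array, a 2.78-fold rise (log2 change 1.47 ± 0.21, SE, n = 3 arrays a group, limma adjusted p = 0.00117). Chrdl1, an antagonist of bone morphogenetic proteins, measured 114, 111 and 89.6 in DMSO against 235, 279.6 and 240.5 with UO126. Its rise was 2.40-fold (adjusted p = 9.5e-05). Fmod encodes fibromodulin, a small proteoglycan that binds collagen fibrils. It measured 699, 978 and 1003 in DMSO and 1782, 1959 and 2314 with UO126, a 2.28-fold rise (adjusted p = 0.000566). Eln, the gene of elastin, measured 341, 488 and 460.3 against 863, 1034 and 952 and rose 2.23-fold (adjusted p = 0.000652). Col9a2, a chain of the cartilage collagen IX, measured 257, 286 and 259 against 463, 858 and 577 and rose 2.30-fold (adjusted p = 0.00559).

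Frzb, a secreted Wnt antagonist, measured 239, 223 and 216 in DMSO and 463, 496 and 516 with UO126, and rose 2.17-fold (adjusted p = 0.000252). C1qtnf3, also called cartducin, a secreted protein of growth plate cartilage, measured 957, 954 and 1041 against 1818, 2459 and 2158 and rose 2.16-fold (adjusted p = 0.000232). Abi3bp, an extracellular matrix protein, had the tightest groups of the rises, with 304, 275 and 305 in DMSO and 646, 634 and 638 with UO126 (2.17-fold, adjusted p = 3.79e-05). Cryab, a small heat shock protein, measured 212, 307 and 224 against 450.3, 647 and 501 (2.16-fold, adjusted p = 0.000343). Npr3, the clearance receptor for natriuretic peptides, measured 177, 148 and 146 against 353, 339 and 306 (2.13-fold, adjusted p = 0.000213). Megf6, a protein with EGF-like repeats, rose 2.36-fold (log2 change 1.24 ± 0.19, adjusted p = 0.00157). Pcsk6, a proprotein convertase, rose 2.34-fold (1.23 ± 0.19, adjusted p = 0.00163). Of the rises so far none lost its call under the 18 alternatives tried, although other probe sets of Chrdl1 (log2 change 0.84, adjusted p = 0.214), Eln (1.65, 0.0582), Npr3 (0.97, 0.0508) and Megf6 (0.58, 0.0531) did not all pass. The 2 remaining rises did: Chadl, a leucine-rich repeat matrix protein, rose 2.12-fold (adjusted p = 0.0488) and lost the call in 9 of 18 alternatives, among them leaving out any DMSO array or UO126 2 or 3 (adjusted p = 0.0516 to 0.196), and Smpd3 is given with the mineralization genes.

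Among the falls, Il1rn, the secreted antagonist of the interleukin 1 receptor, measured 324, 332 and 362 in DMSO and 86.6, 101 and 99.8 with UO126. The groups lay far apart, and the fall was 3.54-fold (log2 change -1.83 ± 0.14, adjusted p = 5.11e-06). Krt18, a keratin of simple epithelia that other cells can also make, measured 260.1, 249 and 229.6 against 80.1, 68.9 and 62.7 and fell 3.5-fold (adjusted p = 1.73e-06). Klk10, a kallikrein-type secreted protease, measured 762, 574 and 970.3 against 218, 194 and 299 and fell 3.23-fold (adjusted p = 0.000535). Prg4 encodes lubricin, the lubricant of joint surfaces. Its signals were 352, 338 and 386 in DMSO and 119, 132 and 102 with UO126, a 3.07-fold fall (adjusted p = 0.0006). Mitf, a transcription factor of melanocytes and osteoclasts that also acts on lysosomal genes, measured 373, 399 and 368 against 162, 110.1 and 118 and fell 2.96-fold (adjusted p = 5.38e-05). Sbsn, a secreted protein best known from epidermis, measured 488, 483 and 444 against 202, 167 and 127 and fell 2.91-fold (adjusted p = 2.96e-05). Socs3, a brake on cytokine signalling through JAK and STAT, measured 1017, 994 and 926 against 397, 282 and 390.3 and fell 2.78-fold (adjusted p = 0.000502). Slpi, a secreted inhibitor of leukocyte proteases, measured 749, 949.9 and 782 against 377, 376 and 257 and fell 2.48-fold (adjusted p = 0.000216).

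Receptor and trafficking genes followed. Eps8, a substrate of the EGF receptor that acts on actin, measured 715, 793 and 760.0 in DMSO and 329, 319 and 316 with UO126, so that its groups were tight and well apart (2.35-fold lower, adjusted p = 4.08e-06). Met, the receptor for hepatocyte growth factor, measured 288, 238 and 210.2 against 144, 79.4 and 101 and fell 2.32-fold (adjusted p = 0.00377). Il13ra1, a chain of the interleukin 13 receptor, fell 2.41-fold (adjusted p = 0.000356), with 2 of its 4 other probe sets also called. Rab3b, a small GTPase of vesicle release, measured 218, 281 and 207 against 88.1, 158 and 72.8 and fell 2.32-fold (adjusted p = 0.0102). That call ended without DMSO 2, without UO126 3 or with only the DMSO and UO126 arrays in the fit (adjusted p = 0.0551 to 0.0779). Fosl1 and Ereg complete the list and are given with the ERK genes.

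**Figure D1:**
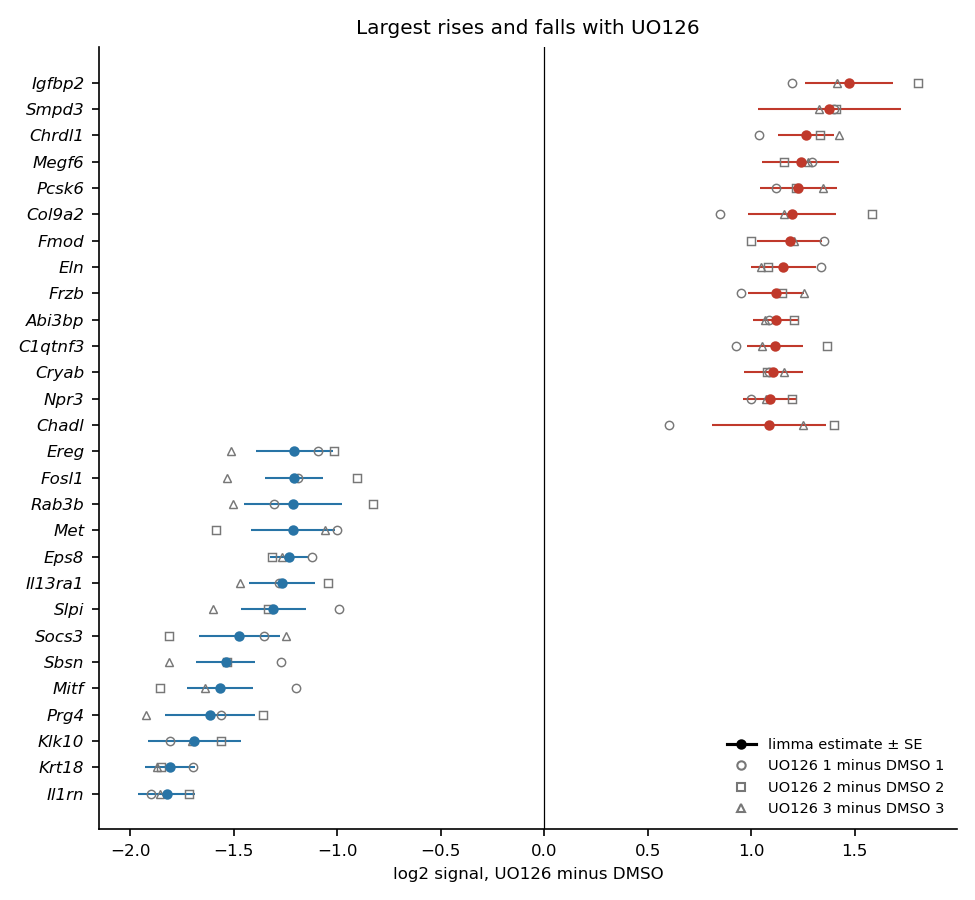
Log2 signal of UO126 minus DMSO (horizontal axis) for the 14 largest rises (red) and 14 largest falls (blue), with the limma estimate and its SE as a filled point and bar. Open symbols give the differences of same-numbered arrays. All 3 lie on the same side of 0 for each gene, which follows from choosing genes whose groups did not overlap. The estimates run from a rise of 1.47 for Igfbp2 to a fall of 1.83 for Il1rn. Only called genes averaging 200 or more in the brighter group were ranked.

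The genes with the largest changes and the called ERK feedback genes, 32 in all, were looked up in the RefSeq promoter table (GRCm38.p6), which holds a window from 250 bases before the start. Windows were found for 21 genes (27 windows, as some genes have several starts), and motifs known to bind factors downstream of ERK were searched on both strands. The motifs were AP-1 (TGANTCA), CRE (TGACGTCA), ETS (CCGGAAG) and the CArG box. AP-1 was in 4 of the 27 windows, against 7.81% of the 32851 windows in the table. CRE and ETS were each in 1 window, against 1.79% and 8.86%, and no window held a CArG box, against 1.63%. AP-1 and CRE letters, which resemble each other, did not overlap in the windows printed. The 6 windows with a match are shown because they are the places in these genes where such letters occur, from 250 bases before the start to 5 after it, with the matches in capitals. All lie on the forward strand: Il1rn at chr2:24336610-24336864, Sbsn at chr7:30751221-30751475, Met at chr6:17463707-17463961, Igfbp2 at chr1:72825137-72825391, Klk10 at chr7:43780804-43781058 and Mitf at chr6:97991533-97991787. The arrays do not show which start was used, and Il1rn, Igfbp2 and Mitf have further starts whose windows held no match.
Il1rn: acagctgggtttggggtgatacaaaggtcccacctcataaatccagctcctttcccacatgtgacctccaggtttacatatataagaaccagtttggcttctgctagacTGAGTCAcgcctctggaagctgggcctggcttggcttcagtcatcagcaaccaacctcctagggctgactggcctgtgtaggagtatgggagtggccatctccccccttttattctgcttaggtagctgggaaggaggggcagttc
Sbsn: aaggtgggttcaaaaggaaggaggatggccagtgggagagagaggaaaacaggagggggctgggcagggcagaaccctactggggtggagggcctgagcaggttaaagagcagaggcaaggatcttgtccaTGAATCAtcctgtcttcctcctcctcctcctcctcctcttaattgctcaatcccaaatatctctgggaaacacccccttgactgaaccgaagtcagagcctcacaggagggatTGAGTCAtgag
Met: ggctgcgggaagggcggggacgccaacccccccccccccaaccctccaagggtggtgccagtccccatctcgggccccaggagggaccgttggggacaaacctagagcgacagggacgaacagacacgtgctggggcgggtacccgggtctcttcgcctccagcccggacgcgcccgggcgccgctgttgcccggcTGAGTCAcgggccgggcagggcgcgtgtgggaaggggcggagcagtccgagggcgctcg
Igfbp2: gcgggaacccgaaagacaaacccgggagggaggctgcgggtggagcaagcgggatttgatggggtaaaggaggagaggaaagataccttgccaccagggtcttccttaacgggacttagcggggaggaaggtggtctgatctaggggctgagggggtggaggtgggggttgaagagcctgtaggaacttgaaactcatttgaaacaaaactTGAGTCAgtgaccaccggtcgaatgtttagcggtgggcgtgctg
Klk10: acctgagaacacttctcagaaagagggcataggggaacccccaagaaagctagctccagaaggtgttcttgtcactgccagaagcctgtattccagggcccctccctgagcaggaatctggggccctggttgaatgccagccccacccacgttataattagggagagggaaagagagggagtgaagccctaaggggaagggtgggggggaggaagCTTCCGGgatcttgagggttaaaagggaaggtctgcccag
Mitf: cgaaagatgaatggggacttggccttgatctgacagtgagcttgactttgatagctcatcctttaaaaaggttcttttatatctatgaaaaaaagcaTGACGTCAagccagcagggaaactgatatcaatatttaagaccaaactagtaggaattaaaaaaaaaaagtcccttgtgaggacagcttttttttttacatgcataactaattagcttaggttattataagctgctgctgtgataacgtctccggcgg
The AP-1 letters begin 141 bases before the start in Il1rn, 54 in Met and 39 in Igfbp2, and 119 and 6 bases before it in Sbsn. The CRE of Mitf begins 153 bases before its start and the ETS match of Klk10, read on the reverse strand, 35. AP-1 letters thus occurred in the window of a gene that rose (Igfbp2) as well as in those of 3 genes that fell. A match is a description of the letters and not a bound site. The windows of Dusp6 and Etv5, the called ERK feedback genes in the table, held none of the 4 motifs.

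Some of the genes that ERK is known to switch on fell. Of 22 tested ERK feedback and readout genes, 5 fell and 0 rose, whereas 1.57% of all genes tested fell. The median log2 change of the list was -0.27, against 0.01 over all genes, and 18 of its members had a negative value. In all 3 same-numbered pairs 14 members were lower, as were 20.1% of all genes tested. Fosl1, an AP-1 subunit of the Fos family, measured 282, 324 and 371 in DMSO and 123, 173 and 128 with UO126, a 2.31-fold fall (log2 change -1.21 ± 0.14, adjusted p = 0.000195). Etv5, an Ets factor induced by FGF signalling, measured 432, 325 and 324 against 209.8, 232 and 205 and fell 1.66-fold (adjusted p = 0.00477). Neither gene had overlapping groups, and both calls held under every alternative. The other probe set of Fosl1 did not pass (log2 change -1.41, adjusted p = 0.495), and those of Etv5 gave -0.85 (0.0309) and -0.37 (0.511). Dusp6, the phosphatase that removes the activating phosphates of ERK in the cytoplasm, measured 498, 481 and 432 against 238, 259.6 and 196 and fell 2.05-fold (adjusted p = 0.0311). Phlda1, a pleckstrin-homology protein, measured 877, 951 and 853 against 544, 636 and 600.1 and fell 1.51-fold (adjusted p = 0.0225). Dusp4, the nuclear phosphatase of the family, measured 24.1, 29 and 30.8 against 10.2, 12.1 and 14.1, all under a signal of 50, so that the size of its 2.31-fold fall (adjusted p = 0.0142) is imprecise. It was tested because its mean with trichostatin A was above 50.

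The last 3 calls depended on the arrays used. Dusp6 lost its call without any 1 of the 6 arrays (adjusted p = 0.0555 to 0.132), Phlda1 without DMSO 1, DMSO 2, UO126 1 or UO126 3 (0.0535 to 0.0909), and Dusp4 without DMSO 2, DMSO 3 or UO126 1 (0.052 to 0.0634) and also with signals under 50 set to 50. Among the members that did not pass, Dusp5 measured 74, 123 and 98.5 in DMSO and 47.6, 65.6 and 30.6 with UO126 (adjusted p = 0.316). The Sprouty genes differed from each other in sign: Spry2 had a log2 change of -0.54 ± 0.21 (adjusted p = 0.253), Spry4 of -0.56 ± 0.26 (0.345) and Spry1 of 0.18 ± 0.20 (0.77). Spry2 and Spry4 did not overlap between the groups, whereas Spry1 did. The related Spred genes, which hold back Raf, gave log2 changes of -0.19 ± 0.09 for Spred1 (adjusted p = 0.339), -0.22 ± 0.09 for Spred2 (0.289) and -0.74 ± 0.26 for Spred3 (0.183). Ccnd1, the cyclin D1 gene and a classical readout of ERK in dividing cells, measured 1747, 1902 and 2066 against 1631, 1782 and 1420.4 (log2 change -0.24 ± 0.09, adjusted p = 0.221). Of the remaining Ccnd1 probe sets 1 passed and 1 did not, with -0.49 (adjusted p = 0.0234) and -0.35 (0.209). Myc measured 423, 449.6 and 399 against 410.3, 432 and 410.3, with overlapping groups (-0.02 ± 0.11, adjusted p = 0.969). The chromatin protein gene Hmga2 overlapped in its brightest probe set (-0.45 ± 0.15, adjusted p = 0.172), but its other probe sets passed (-0.72, adjusted p = 0.00307, and -0.96, 0.000208). The urokinase receptor gene Plaur overlapped as well (-0.30 ± 0.17, 0.465). Other members with values are the cytokine Lif (-0.25 ± 0.26, 0.762), the receptors Epha2 (-0.22 ± 0.13, 0.478) and Epha4 (0.22 ± 0.16, 0.612), the phosphatase Dusp7 (-0.13 ± 0.13, 0.735), Ier3 (0.23 ± 0.26, 0.782) and the FGF signalling inhibitor Il17rd (0.31 ± 0.17, 0.454).

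**Figure D2:**
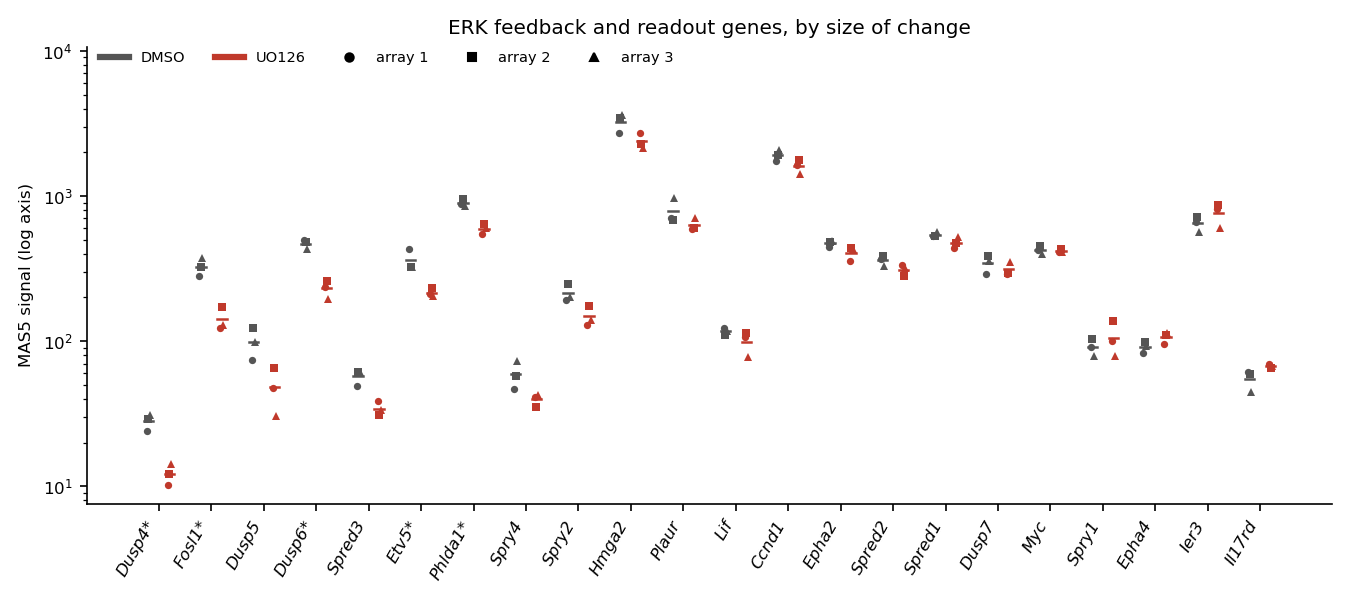
MAS5 signal (log axis) of the 22 tested ERK feedback and readout genes on the 3 DMSO arrays (grey) and 3 UO126 arrays (red), with group means as lines and genes ordered by log2 change. The 5 genes marked with an asterisk passed the threshold, and in each of them all UO126 arrays lie below all DMSO arrays.

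Transcripts of the cascade itself gave 1 call. Of 27 tested components from receptors to Ets factors, 1 rose and 0 fell, close to the 3.45% over all genes, and the median log2 change was -0.04. The member that rose was Fgfr3, the FGF receptor of proliferating chondrocytes, which measured 1079, 1002 and 1193 in DMSO and 1753, 1701 and 1916 with UO126. Its rise was 1.64-fold (log2 change 0.72 ± 0.10, adjusted p = 0.000935), and the gene's other probe set gave 0.21. Map2k1, which encodes a MEK, measured 586, 593 and 611 against 555, 569.8 and 571 (log2 change -0.08 ± 0.06, adjusted p = 0.665). Map2k2, the other MEK gene, had overlapping groups (-0.14 ± 0.14, adjusted p = 0.737). These transcripts do not report the activity that UO126 blocks. Egfr, the EGF receptor, measured 370.5, 307 and 338 against 259, 243 and 273 and missed the threshold (adjusted p = 0.0532, 0.0351 with the replicate block), and none of its 5 other probe sets passed.

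The EGF receptor ligands Ereg and Hbegf fell. Ereg, the gene of epiregulin, measured 401, 374 and 426 in DMSO and 188, 185 and 149 with UO126, a 2.31-fold fall (adjusted p = 0.00205). Hbegf, the heparin-binding EGF-like ligand, measured 228, 233 and 292 against 146, 109 and 125 and fell 1.98-fold (adjusted p = 0.00157). They were the 2 called of 10 tested growth factor ligands, beside 3.45% of all genes, and both calls held under every alternative. The other probe set of Hbegf missed the threshold (log2 change -0.78, adjusted p = 0.0662). Tgfa, which encodes another EGF receptor ligand, had a log2 change of 0.14 (adjusted p = 0.73). In the insulin-like growth factor axis, Igfbp2 rose and Igfbp6, a binding protein with a preference for IGF-II, fell. Igfbp6 measured 400.0, 394 and 321 against 201, 208 and 187 (1.86-fold lower, adjusted p = 0.00141). The other 15 tested members, among them Igf1 (log2 change 0.38 ± 0.19, adjusted p = 0.38), Igf2 (0.11, 0.87) and Igf1r (0.05, 0.93), were not called.

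Of 25 tested immediate early genes 2 fell at 24 hours, beside 1.57% of all genes, and 0 rose. The list had 12 positive and 13 negative values and a median log2 change of -0.04. Arc, an early response gene best known in neurons, measured 39, 58.7 and 56 in DMSO and 5.51, 6.21 and 5.73 with UO126 (adjusted p = 0.00255), values too low for a size, and the call was lost with signals under 50 set to 50. Klf10, a TGF-beta induced zinc finger factor, measured 336, 288 and 353 against 237, 171 and 243 and fell 1.51-fold (adjusted p = 0.019). The Klf10 call ended in 5 of 18 alternatives, among them without DMSO 1, DMSO 3 or UO126 2 (adjusted p = 0.0624 to 0.155). Egr1, a direct target of ERK through Ets factors, was spread widely with UO126: 2104, 2584 and 1952 in DMSO against 1601, 1856 and 522 (log2 change -0.92 ± 0.49, adjusted p = 0.442). All 3 UO126 arrays lay below all 3 DMSO arrays, but UO126 3 stood well below the other two. Fos (-0.30, adjusted p = 0.921) and Junb (-0.92, adjusted p = 0.366) were not called.

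Cartilage matrix genes mostly had positive values, few of which passed in the unpaired fit. Of 24 tested cartilage matrix genes and Sox factors, 2 rose (Fmod and Col9a2) and 2 fell (Prg4 and Cytl1), beside 1.88% and 1.57% of all genes. The median log2 change was 0.34, and 21 members had a positive value. Cytl1, a cytokine-like protein secreted by chondrocytes, measured 1092, 1264 and 1538 in DMSO and 527, 569 and 747 with UO126, a 2.12-fold fall (adjusted p = 0.00829). With the replicate block the same list held 9 rises and 2 falls, beside 3.38% of all genes higher and 2.57% lower in that fit. Acan, the gene of aggrecan, the main cartilage proteoglycan, shows what the block did: it measured 1938, 2305 and 3301 in DMSO and 3197, 3299 and 4765 with UO126. UO126 arrays 1 and 2 lay just below DMSO 3, so the groups overlapped, but each UO126 array was above the DMSO array of its own number (log2 change 0.59 ± 0.21, adjusted p = 0.18, 0.00377 with the block). Snorc, a chondrocyte proteoglycan, measured 721, 1026 and 1385 against 1229, 1781 and 2464 (0.80 ± 0.32, adjusted p = 0.249, 0.000111 with the block). Col11a2, a chain of collagen XI, measured 934, 1423 and 1901 against 1802, 2187 and 3122 (0.76 ± 0.28, adjusted p = 0.2, 0.000422 with the block).

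The block also called Col9a3 (log2 change 0.69, adjusted p = 0.175 without and 0.000111 with it), Comp, the cartilage oligomeric matrix protein (0.52, 0.312 and 0.00353), Matn1, a matrilin (0.60, 0.104 and 0.00302), and Ucma, an early chondrocyte protein (0.47, 0.0544 and 0.00985). In limma without the block, the other probe sets of Col9a3 gave 0.29 (adjusted p = 0.406) and 0.31 (0.779), and that of Ucma gave 0.72 (0.0478). In this list 18 of 24 genes were higher in all 3 numbered pairs, as were 23.2% of all genes tested. The defining genes Col2a1 and Sox9 had the values nearest to 0. Col2a1, the collagen II gene, measured 3903, 6317 and 6880 in DMSO and 5023, 5780 and 7232 with UO126 (log2 change 0.10 ± 0.19, adjusted p = 0.885). Sox9, the master factor of cartilage, measured 826, 667 and 1007 against 647, 879 and 1039 (0.03 ± 0.23, adjusted p = 0.978). Both had overlapping groups. The other members ranged in log2 change from -0.20 for Matn2 to 0.39 for Hapln1, the link protein.

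Genes of hypertrophy and mineralization, the last steps of chondrocyte maturation, had a median of 0.46 on the log2 scale over 16 tested genes. In the unpaired fit 2 rose and 1 fell, beside 1.88% and 1.57% of all genes. Smpd3, a sphingomyelinase needed for mineralization of cartilage and bone, measured 357, 409.6 and 672 in DMSO and 942, 1088 and 1687 with UO126, a 2.60-fold rise (log2 change 1.38 ± 0.35, adjusted p = 0.0459). Mef2c, a transcription factor that drives hypertrophy, measured 333, 285 and 304 against 415, 422 and 540.2 and rose 1.49-fold (adjusted p = 0.0424). Ank, which exports the mineralization inhibitor pyrophosphate, measured 769, 857 and 901 against 350.1, 368 and 399 and fell 2.26-fold (log2 change -1.18 ± 0.11, adjusted p = 2.96e-05). The groups did not overlap for any of these, yet only the Ank call held under every alternative. Smpd3 lost its call in 9 of 18 alternatives, among them without any of DMSO 1, DMSO 2 and the 3 UO126 arrays (adjusted p = 0.0513 to 0.201), and Mef2c in 10 of 18, among them without any 1 of the 6 arrays (0.0545 to 0.192). In the block fit their adjusted p were 9.03e-07 and 0.00805. Without the block, the other probe sets of Smpd3 gave log2 changes of 1.30 (adjusted p = 0.131) and 1.00 (0.297). Those of Mef2c ranged from 0.43 to 0.77 (adjusted p = 0.0405 to 0.465).

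With the replicate block, 7 of the 16 genes rose and 1 fell, beside 3.38% and 2.57% of all genes. Col10a1, the collagen of hypertrophic chondrocytes, differed far more between numbers than between treatments, at 219.8, 374 and 1049 in DMSO and 659.8, 819 and 2061 with UO126. Its log2 change was 1.23 ± 0.56 (adjusted p = 0.336, 0.000306 with the block). Ihh, the hedgehog ligand of prehypertrophic cells, measured 69.2, 88.9 and 146 against 153, 169 and 304 (1.04 ± 0.28, adjusted p = 0.0681, 0.00729 with the block). Array number 3 was the highest for both genes in both groups. Panx3, a channel protein of maturing chondrocytes and osteoblasts, measured 428, 412 and 550.3 against 786, 857 and 1237 (1.03 ± 0.37, adjusted p = 0.19, 0.0131 with the block). Alpl, the alkaline phosphatase of mineralizing cells (0.71 ± 0.22, 0.13 and 0.00613), and Pth1r, the receptor for PTHrP (0.72 ± 0.28, 0.238 and 0.00788), were likewise called with the block. Mmp13, the collagenase of late hypertrophy, measured 2701, 3070 and 3500 against 2544, 2567 and 3133 and was called by neither fit (log2 change -0.17 ± 0.27, adjusted p = 0.86). Dmp1, a matrix protein of osteocytes, was lower in all 3 pairs at 158, 110.1 and 47 against 26, 57.8 and 31, with overlapping groups (adjusted p = 0.295). Osteoblast markers, 4 of which are also genes of mineralization, were not called in the unpaired fit, with 5 of 6 positive and a median of 0.37, and 4 were higher in all 3 pairs. Their part in these values was not tested.

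**Figure D3:**
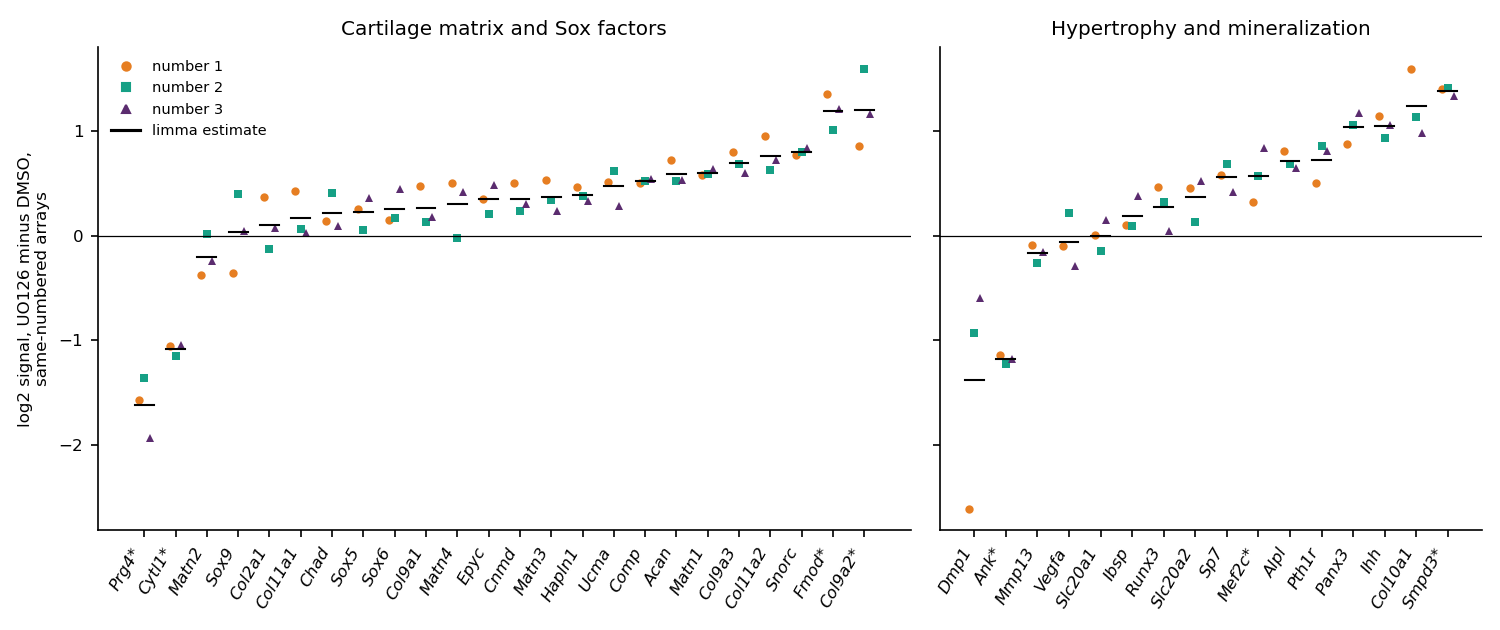
Log2 signal of each UO126 array minus the DMSO array of the same number for 24 cartilage matrix and Sox genes (left) and 16 hypertrophy and mineralization genes (right), ordered by the limma estimate (black line). Genes with an asterisk passed the threshold without the block. Most pairs lie above 0, with 18 and 11 genes higher in all 3 pairs, and Prg4, Cytl1, Dmp1 and Ank lie well below it.

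In the unpaired fit the Wnt list was the one with the most rises. Of 21 tested Wnt ligands, antagonists and targets, 6 rose and 1 fell, beside 1.88% and 1.57% of all genes, with a median log2 change of 0.26 (0.097 without DMSO 3). The antagonists Frzb and Sostdc1 rose. Sostdc1, which binds Wnt co-receptors and BMPs, measured 117, 116 and 112 in DMSO and 190.0, 213 and 177 with UO126 (1.67-fold, adjusted p = 0.00559). Both calls held under every alternative, but the other probe set of Sostdc1 did not pass (log2 change 0.40, adjusted p = 0.444). The R-spondins Rspo2 and Rspo3 enhance Wnt signalling, the opposite role. Rspo2 measured 102, 101 and 97.9 against 173, 205 and 159.7 (1.77-fold higher, adjusted p = 0.0252), and Rspo3 rose 1.43-fold (adjusted p = 0.0495). Nkd1, an intracellular antagonist and Wnt target, rose 2.05-fold (adjusted p = 0.0307), and Dkk3, a secreted member of the Dickkopf family, rose 1.39-fold (adjusted p = 0.033). The other probe set of Dkk3 gave a log2 change of 0.18 (adjusted p = 0.597), and those of Nkd1 gave 0.93 (0.099) and 0.73 (0.0447). Wif1, another secreted antagonist, measured 264, 262 and 228 against 164, 141 and 182 and fell 1.55-fold (adjusted p = 0.0438). Axin2, the standard readout of beta-catenin, was not called, at a log2 change of 0.01 (adjusted p = 0.99).

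The calls of these last 5 genes ended when single arrays were left out: Rspo2 without any DMSO array or UO126 1 or 2 (adjusted p = 0.0614 to 0.115), Rspo3 without DMSO 2, DMSO 3 or any UO126 array (0.0917 to 0.185), Nkd1 without the same 5 arrays (0.0651 to 0.121), Dkk3 without DMSO 1, DMSO 3, UO126 2 or UO126 3 (0.0702 to 0.152) and Wif1 without any 1 of the 6 (0.059 to 0.173). In the block fit all 5 were called (adjusted p = 0.0026 for Dkk3 to 0.0327 for Wif1).

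Ligands and antagonists of the BMP, TGF-beta and hedgehog pathways gave a few calls each, beside 1.88% of all genes called higher and 1.57% lower. In the BMP list, Chrdl1 rose and Id1, a direct BMP target, fell, out of 22. Id1 measured 1060.0, 933 and 1080.3 in DMSO and 636, 762 and 649 with UO126 (1.5-fold lower, adjusted p = 0.0358), a call lost in 8 of 18 alternatives, among them without any DMSO array, UO126 1 or UO126 3 (adjusted p = 0.0533 to 0.129). Nog, the gene of the BMP antagonist noggin, measured 41.1, 45.4 and 66.9 against 70.5, 103 and 134 (log2 change 0.99 ± 0.26, adjusted p = 0.0532, 0.0196 with the block). Gdf10, a ligand of the same family, measured 193, 175 and 193 against 274, 299.6 and 366 (0.73 ± 0.20, adjusted p = 0.0651, 0.0216 with the block). The ligands Bmp2 (0.30, adjusted p = 0.452) and Bmp4 (0.24, 0.553) were not called. In the TGF-beta list of 16, 2 ligands rose and 2 binding partners fell. Tgfb3 measured 442, 488 and 473 against 716, 756 and 731, a rise of 1.57-fold that held under every alternative (adjusted p = 0.000208), and Tgfb2 rose 1.31-fold (adjusted p = 0.0146). Ltbp1, which holds latent TGF-beta in the matrix, measured 1049.9, 984 and 1034 against 759.6, 671 and 656 and fell 1.47-fold (adjusted p = 0.00534). Tgfbr3, the co-receptor betaglycan, fell 1.46-fold (adjusted p = 0.00914), although its other probe set gave a log2 change of -0.12.

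Single arrays ended the calls of Tgfb2 (without DMSO 1 or UO126 3, adjusted p = 0.0597 to 0.0681) and Tgfbr3 (without UO126 3, 0.0524), and centring each array on its median ended that of Ltbp1 (0.0962). In the hedgehog and PTHrP list of 12, 2 rose with calls near the threshold, beside 1.88% of all genes. Gli2, a transcription factor of the pathway, measured 201, 179 and 161 in DMSO and 276, 237 and 246 with UO126 (1.4-fold, adjusted p = 0.0442). Boc, a hedgehog co-receptor, measured 482, 510.5 and 526 against 637, 644 and 629 (1.26-fold, adjusted p = 0.0475). Neither overlapped, but Gli2 lost its call without DMSO 2, DMSO 3 or any UO126 array (adjusted p = 0.0744 to 0.161) and Boc without any 1 of the 6 (0.0812 to 0.144). The other probe sets of Gli2 (log2 change 0.21, adjusted p = 0.473) and Boc (0.19, 0.515) did not pass. The pathway readouts Ptch1 (log2 change 0.30 ± 0.12, adjusted p = 0.248) and Gli1 (0.18, 0.77) were not called.

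The median log2 change of the inflammatory genes was -0.61, or -0.17 with signals under 50 set to 50. Of 18 tested, 4 fell and 0 rose, beside 1.57% of all genes. Besides Il1rn and Socs3, Il1r1, the signalling receptor of interleukin 1, measured 547, 601 and 523 in DMSO and 353, 388 and 321 with UO126 (1.57-fold lower, adjusted p = 0.000849). Both the receptor and its antagonist were thus called lower. Il33, an alarmin of the same family, measured 85, 33.3 and 48.3 against 22.4, 5.54 and 21 (adjusted p = 0.0297), at signals too low for a size. It lost its call in 9 of 18 alternatives, among them without DMSO 1, DMSO 3 or UO126 2 (adjusted p = 0.0516 to 0.523). Cxcl5, a neutrophil chemokine, measured 974, 855 and 599 against 368, 227 and 231 (log2 change -1.56 ± 0.41, adjusted p = 0.0532, 0.00641 with the block). Ccl7, a monocyte chemokine, measured 194, 177 and 172 against 108, 97.8 and 81.4 (-0.93 ± 0.37, adjusted p = 0.248, 0.0234 with the block). Ccl2 (-0.89 ± 0.49, adjusted p = 0.465), Cxcl1 (-1.01, 0.441) and Il6 (-0.84, 0.55) were not called. Nfkbia, the inhibitor that NF-kappaB induces, had a log2 change of -0.19 (adjusted p = 0.704).

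Of 10 genes of prostaglandin synthesis and breakdown, 0 passed in limma (5 at an unadjusted p under 0.05), and 9 had a negative value (median -0.25). Over all genes tested, 1842 of 11751 reached that unadjusted p. With the block, Ptgis, the prostacyclin synthase gene (log2 change 0.45, adjusted p = 0.0979 without and 0.0249 with it), was called upward and Slco2a1, a prostaglandin carrier (-0.74, 0.0728 and 0.00793), downward. Ptgs2, the inducible cyclooxygenase, measured 415, 308 and 398 in DMSO and 516, 382 and 232 with UO126, with no direction shared by the pairs.

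Of 17 tested keratins and epithelial-type genes 4 fell, beside 1.57% of all genes, and 0 rose, while 3 members had a positive value (median log2 change -0.45, -0.14 with signals under 50 set to 50). Beyond Krt18 and Klk10 these were Anxa8, an annexin, and Perp, a desmosomal protein. Anxa8 measured 1063, 1046 and 1558 in DMSO and 625, 596 and 793 with UO126 (1.80-fold lower, adjusted p = 0.00777, 0.0519 with the DMSO and UO126 arrays only). Perp measured 328, 289 and 243 against 188, 180.4 and 169.9 (1.59-fold lower, adjusted p = 0.0178) and lost its call without DMSO 1, DMSO 2, UO126 2 or UO126 3 (adjusted p = 0.0555 to 0.0775). Krt8, the usual partner of Krt18, had a log2 change of -0.14 (adjusted p = 0.865), a value that does not match the fall of Krt18. Epcam, an adhesion molecule of epithelia, varied within both groups, at 152, 1227 and 1165 in DMSO and 407, 94.3 and 362 with UO126 (adjusted p = 0.57).

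Among matrix proteases and their inhibitors, 2 of 19 rose and 2 fell, beside 1.88% and 1.57% of all genes, with a median log2 change of 0.03. Plat, the tissue plasminogen activator, measured 267, 234 and 239 in DMSO and 124, 119.6 and 112 with UO126, a 2.08-fold fall that held under every alternative (adjusted p = 0.000538). Mmp9, a gelatinase of osteoclasts and chondrocytes, measured 57, 64.3 and 47.6 against 27.6, 29 and 26.2 (2.03-fold lower, adjusted p = 0.00918), close to or under a signal of 50, and the call ended with signals under 50 set to 50 or with the DMSO and UO126 arrays only (adjusted p = 0.092 to 0.347). The 2 genes that rose encode ADAMTS proteases. Adamts12 measured 165, 135 and 121 against 230.5, 240.4 and 229 (1.68-fold, adjusted p = 0.0139), and Adamts9 217, 345 and 216 against 391.9, 424 and 412 (1.62-fold, adjusted p = 0.0294). Adamts12 lost its call without DMSO 2, DMSO 3 or UO126 2 (adjusted p = 0.0533 to 0.0698) and Adamts9 without DMSO 1, DMSO 3 or any UO126 array (0.0605 to 0.117), and the other probe set of Adamts9 gave a log2 change of 0.13. With the block, Mmp3 (log2 change -1.14, adjusted p = 0.0973 without and 0.00505 with it) and Timp1, an inhibitor of these enzymes (-0.61, 0.0821 and 0.00178), were called lower.

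In the integrins, 1 of 18 rose and 2 fell, beside 1.88% and 1.57% of all genes. Itga1, a collagen receptor chain, measured 119.5, 134 and 102 in DMSO and 184, 176 and 210.3 with UO126 (1.61-fold higher, adjusted p = 0.0108). Itga6, a laminin receptor chain, measured 671, 632 and 634 against 399, 329 and 424 (1.69-fold lower, adjusted p = 0.00559). Itgb8, a chain of a TGF-beta activating integrin, measured 116, 131 and 118 against 52.3, 51.7 and 71.3 (2.10-fold lower, adjusted p = 0.0448). Itga1 lost its call without DMSO 3 or UO126 3 (adjusted p = 0.0549 to 0.0622), Itgb8 without any 1 of the 6 arrays (0.0585 to 0.153) and Itga6 with centred arrays (0.0564).

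No gene of the cell cycle lists passed in the unpaired fit. All 25 tested genes of G2 and mitosis had negative log2 changes, from -0.37 to -0.05 (median -0.17), and 21 of 23 genes of DNA replication were negative (median -0.18). In each list limma called 0 genes, with 3 and 7 at an unadjusted p under 0.05 and 1 and 0 called with the block. Over all genes tested, 1842 of 11751 had an unadjusted p under 0.05 in limma, so such counts within a list are no result by themselves. The values furthest from 0 were Birc5, the survivin gene of dividing cells (-0.37 ± 0.10, adjusted p = 0.0687, 0.0326 with the block), and Tk1, a thymidine kinase of S phase (-0.44 ± 0.15, adjusted p = 0.166). Mki67, the proliferation marker, had a log2 change of -0.15 (adjusted p = 0.62). Of 21 G1 cyclins and CDK inhibitors limma called 0 (5 at an unadjusted p under 0.05), with a median of -0.01. With the block, Cdkn1c, a CDK inhibitor of maturing chondrocytes, was called upward (0.47 ± 0.13, adjusted p = 0.0649 without and 0.027 with it) and Cdkn2b, which encodes the inhibitor p15, downward (-0.66 ± 0.23, 0.166 and 0.0183). Ribosome biogenesis genes were also mostly negative, 21 of 25 with a median of -0.17, and limma called 0 (8 at an unadjusted p under 0.05, 0 with the block).

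Metabolic and stress lists gave 0 to 3 calls each, beside 3.45% of all genes. Of 22 genes of glycolysis and hypoxia, P4ha1, a collagen prolyl hydroxylase subunit (1.35-fold, adjusted p = 0.00993), and Bnip3, a mitophagy receptor (1.49-fold, 0.0262), rose and the phosphofructokinase Pfkp fell (1.34-fold, 0.0441). Each lost its call without 1 array or more: P4ha1 without UO126 2 (adjusted p = 0.0552), Bnip3 without any DMSO array or UO126 3 (0.0667 to 0.0899) and Pfkp without any array but DMSO 2 (0.0702 to 0.179). Of 23 genes of the amino acid response, Chac1 rose (1.43-fold, adjusted p = 0.0314) and Cebpb, a transcription factor of inflammation and differentiation, fell. Cebpb measured 1518, 1609 and 1687 in DMSO and 1178, 1104 and 1107 with UO126 (1.42-fold, adjusted p = 0.00887, 0.0946 with centred arrays), and Chac1 lost its call without DMSO 1, DMSO 2, UO126 2 or UO126 3 (0.106 to 0.142). Of 24 lysosome and autophagy genes, Mitf and Gpnmb fell and 0 rose. Gpnmb, a membrane protein known as a target of Mitf, measured 152, 155 and 206 against 89.4, 109 and 99.6 (1.71-fold lower, adjusted p = 0.00664, 0.0722 with the DMSO and UO126 arrays only). The other lysosomal genes were not called, with a list median of 0.02. Of 19 interferon-stimulated genes, Psmb9 was called lower at signals under 50, and of 19 genes of cholesterol synthesis 15 were positive and 0 called in limma (median 0.13), with 2 at an unadjusted p under 0.05. That unadjusted p was reached by 1842 of the 11751 genes tested.

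**Figure D4:**
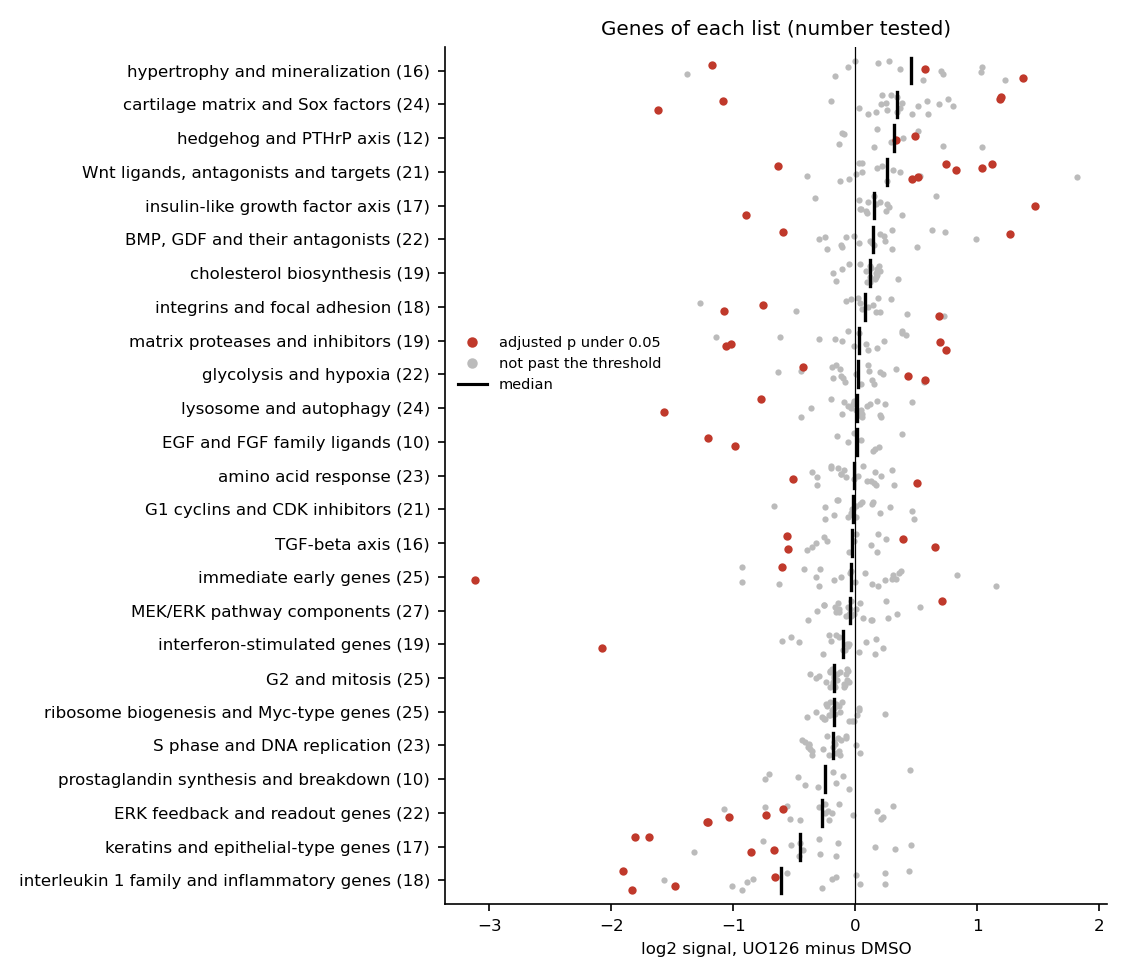
Log2 signal of UO126 minus DMSO for the tested genes of 25 lists, each point a gene, with genes past the threshold in red, the others in grey and the list median as a black line. The medians run from -0.61 for the inflammatory list to 0.46 for hypertrophy and mineralization.

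Markers of other cells in embryonic limbs were looked at for the same arrays. The counts of each cell type stand beside 1.88% of all genes called higher and 1.57% lower. Of 6 tested smooth muscle markers 2 rose, Acta2 and Tagln, beside 1.88% of all genes, and Des, a muscle filament gene, had the only negative value (log2 change -0.62 ± 0.40, adjusted p = 0.55). The summed signal was 5043 to 6491 in DMSO and 7780 to 8838 with UO126, without overlap. Acta2, the smooth muscle actin, measured 2847, 3297 and 3549 against 4529.9, 4301 and 5098 (1.44-fold, adjusted p = 0.0228), and Tagln rose 1.38-fold (adjusted p = 0.037). Acta2 lost its call without DMSO 1, DMSO 2, UO126 1 or UO126 3 (adjusted p = 0.0555 to 0.108) and Tagln without DMSO 1, DMSO 2, UO126 2 or UO126 3 (0.0779 to 0.166). Myh11, the myosin that defines smooth muscle, was under the signal of 50 in every group. Tendon markers gave 2 rises of 6 tested, Fmod and Tnmd, beside 3 negative values. Tnmd, the gene of tenomodulin, measured 479, 473 and 355 in DMSO and 1003, 987 and 754 with UO126 (2.10-fold, adjusted p = 0.000453), whereas Scx, the defining tendon factor, had a log2 change of -0.09, Thbs4 of -0.41 (adjusted p = 0.538) and Egr1 of -0.92. Of 7 tested macrophage markers Pf4 fell (1.65-fold, adjusted p = 0.0492, lost without any array but UO126 1, 0.0733 to 0.205). The summed macrophage signal was 918 to 1040 against 747 to 981, overlapping, with the defining marker Ptprc under 50. Of 4 tested adipocyte markers Lpl, the lipoprotein lipase gene, rose 1.88-fold (adjusted p = 0.00355), whereas the other 3 were negative (list median -0.21) and the defining Adipoq was under 50. Neural markers summed to 1079 to 1224 against 1348 to 1461, without overlap. Their brightest member, S100b, which chondrocytes also express, averaged 789 in DMSO and 1066 with UO126. Of 3 tested osteoclast markers Mmp9 fell, and the summed signal was 674 to 757 against 622 to 785, overlapping. Markers of fibroblasts, osteoblasts, skeletal muscle, endothelium and epidermis gave 0 calls in the unpaired fit, and no erythroid marker reached the level tested. The part of these cells in the gene changes was not tested.

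The study followed up 4 genes chosen with the help of its LY294002 arrays, and none of them passed for UO126 in limma. Adamts5, an aggrecanase, measured 501, 440.1 and 422 in DMSO and 661, 565 and 598 with UO126 (log2 change 0.42 ± 0.11, adjusted p = 0.0582). F13a1, a transglutaminase of hypertrophic cartilage, measured 197, 233 and 204 against 154, 172 and 141 (-0.44 ± 0.16, adjusted p = 0.195). Neither overlapped between the groups. Nr4a1, an orphan nuclear receptor, measured 145, 191 and 178 against 330.1, 494 and 172, so that UO126 3 stayed within the DMSO range (0.84 ± 0.61, adjusted p = 0.602). Phlda2, a relative of Phlda1, had overlapping groups (0.05 ± 0.23, adjusted p = 0.965). Adamts5 passed under 4 of 18 alternatives, with an adjusted p of 0.0231 at the lowest. Its other probe sets did not pass and differed in sign, with log2 changes of 0.29 (limma adjusted p = 0.319) and -0.21 (0.774).

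By fold alone, the measure used in the study, 1359 of the 20091 probe sets that averaged 50 or more with DMSO or UO126 were past a 1.4-fold ratio of mean signals, 587 upward and 772 downward. Of these 32.7% also passed in limma. At 2-fold the count was 192 (72 higher and 120 lower), and at 5-fold 3, each lower. Within the control group, DMSO arrays 1, 2 and 3, each against the mean of the other DMSO arrays, gave larger counts. These were 3263, 2494 and 2284 at 1.4-fold, 486, 395 and 331 at 2-fold, and 39, 31 and 22 at 5-fold. A single array stands there against a mean, so these counts have a wider spread than a ratio of group means. Larger counts in the control group are therefore no measure of the treatment counts. How many of the 1359 probe sets exceed the spread between arrays cannot be read from them.

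UO126 was last set against the other kinase inhibitors at the same dose and time, in contrasts that use no DMSO array. Against SB202190, 1148 genes differed (9.77%), and against LY294002, 961 genes (8.18%). Of the 14 genes with the largest rises against DMSO, 13 were also higher with UO126 than with SB202190 and 10 than with LY294002. Of the 14 with the largest falls, 12 and 9 were also lower. The UO126 arrays that chose these genes enter these contrasts too, so the counts are a description. Among the exceptions, Krt18 measured 70.6 ± 8.82 (SD, n = 3) with UO126 and 65.6 ± 7.996 with LY294002 (difference 0.11 ± 0.12, adjusted p = 0.667), and Fosl1 142 ± 27.4 and 130 ± 12.1 (0.12 ± 0.14, adjusted p = 0.689). Prg4 passed the threshold neither against LY294002 (adjusted p = 0.273) nor against SB202190 (0.674). Such a p does not show that the compounds act alike.

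Against SB202190, cartilage and mineralization genes were among the lists with the most calls. Of the 24 cartilage matrix genes 14 differed, 13 of them higher with UO126, and of the 16 hypertrophy genes 11 differed, 10 higher. Over all genes 9.77% differed in either direction. With each array centred on its median, 9 genes of either list were higher. Of 6 smooth muscle markers 5 were higher, and of 6 osteoblast markers 4. Smpd3 measured 942, 1088 and 1687 with UO126 and 134, 151 and 283 with SB202190, a 6.71-fold difference (log2 difference 2.75 ± 0.35, adjusted p = 0.000142). C1qtnf3 measured 1818, 2459 and 2158 against 323, 382 and 335 (6.16-fold, adjusted p = 2.66e-08), and Igfbp2 466, 904 and 702 against 119, 129.7 and 143 (5.11-fold, adjusted p = 6.87e-06). Penk, the proenkephalin gene, was 4.13-fold higher with UO126 (adjusted p = 2.66e-08). On the other side, Gpnmb measured 89.4, 109 and 99.6 with UO126 and 515, 509 and 569.7 with SB202190 (5.35-fold lower, adjusted p = 9.52e-08). The metallothionein Mt1 was 4.64-fold lower, though its other probe set gave a log2 difference of -0.36 (adjusted p = 0.805). Sned1, a matrix protein, was 3.96-fold lower and Klk10 3.27-fold lower. Each of these differences holds the changes of both compounds from DMSO. For Smpd3, C1qtnf3, Igfbp2 and Penk the SB202190 mean lay below the DMSO mean, for C1qtnf3 at 347 against 984. For Gpnmb, Mt1 and Sned1 it lay above, for Gpnmb at 531 against 171. For Klk10 the SB202190 mean was 782 and the DMSO mean 769.

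Against LY294002, 8.18% of all genes differed. The cartilage matrix list gave 3 calls of 24, near that share. The ERK feedback list gave 6 of 22, each of the 6 lower with UO126 (Dusp5, Dusp6, Spry2, Spred1, Etv5 and Phlda1). Against SB202190 the ERK list gave 8 of 22, again each lower with UO126, beside 9.77% of all genes. Dusp5, a nuclear ERK phosphatase, measured 47.6, 65.6 and 30.6 with UO126 and 259, 348 and 78.5 with LY294002 (4.2-fold lower, adjusted p = 0.0171), a call that ended without UO126 3, LY294002 1 or LY294002 2 (0.0726 to 0.0779). Angptl7, a secreted protein, measured 316, 295 and 350.0 against 1538, 1327 and 1274 (4.31-fold lower, adjusted p = 1.18e-05). Sned1 (3.46-fold) and Rab3b (3.16-fold) were lower too. For Dusp5, Angptl7, Sned1 and Rab3b the LY294002 mean lay above the DMSO mean, for Angptl7 at 1380 against 553. Higher with UO126 were Cryab (2.83-fold, adjusted p = 3.49e-05), Smpd3 (2.67-fold, adjusted p = 0.0234, lost without UO126 2, UO126 3, LY294002 1 or LY294002 2, 0.054 to 0.105), the potassium channel gene Kcnk2 (2.67-fold) and Ihh (2.66-fold, adjusted p = 0.00835). For each of these genes the LY294002 mean lay below the DMSO mean, for Smpd3 narrowly (467 against 480). Cholesterol synthesis genes, none of which was called against DMSO, were higher with UO126 than with LY294002 in 13 of 19. Over all genes 8.18% differed in either direction. With each array centred on its median 3 of the 19 were called higher, although all 19 differences stayed positive. In probe sets, 45.7% of the 1439 calls against LY294002 were higher with UO126, and 22.3% of 806 with each array centred on its median, which moved the median of all probe sets by -0.11.

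**Figure D5:**
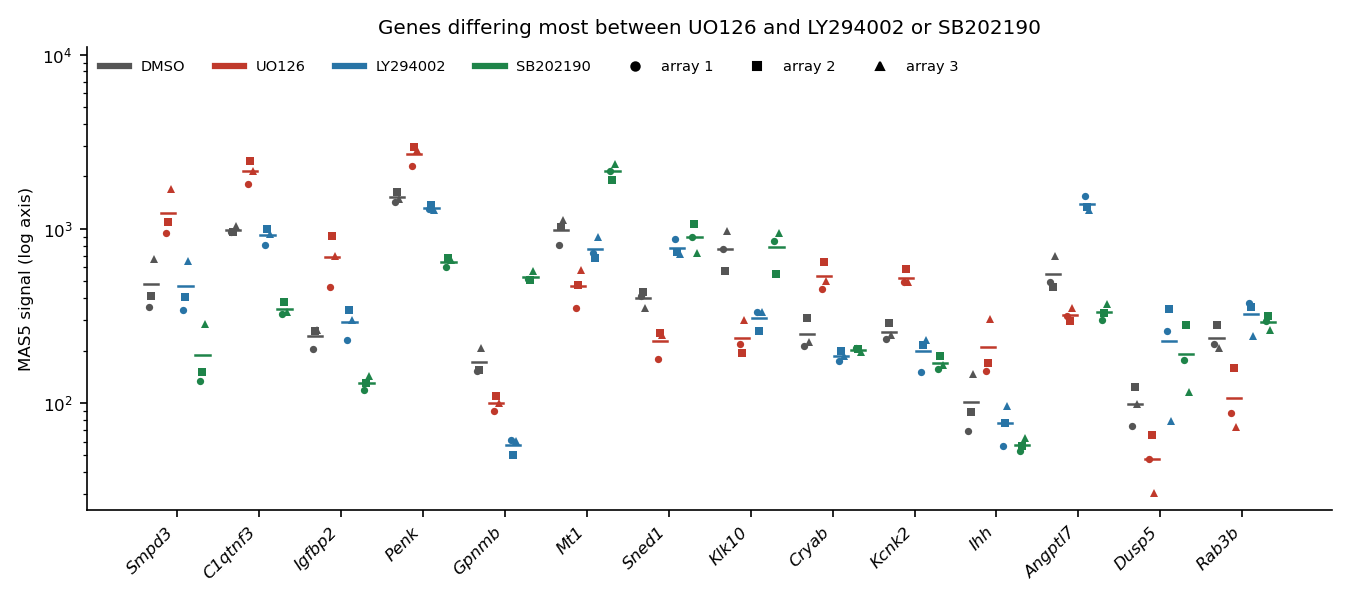
MAS5 signal (log axis) of the genes that differed most between UO126 and SB202190 or LY294002, on 3 arrays each of DMSO (grey), UO126 (red), LY294002 (blue) and SB202190 (green), with group means as lines. Smpd3, C1qtnf3, Igfbp2 and Penk are highest with UO126, and Sned1, Klk10 and Rab3b are lower with UO126 than with SB202190.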

How the data were processed

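RNA of 15 cultures, 3 per group, was hybridised by the authors to Affymetrix Mouse Genome 430 2.0 arrays, 1 array each. The values are linear intensities (MAS5 signals) as deposited, with a trimmed mean of 150 on every array. All value columns were matched to samples by their labels. The labels do not say whether cultures came from separate litters, whereas the study speaks of independent experiments, so p-values measure the spread between these arrays. Precision was limited by having 3 arrays in each group.

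Of 45101 probe sets, 64 controls were left out and those with a mean signal of 50 or more in at least 1 of the 5 groups were kept (21765). Log2 signals, floored at 1, of all 15 arrays were fitted with limma 3.58.1 in R 4.3.3 (lmFit, eBayes with a variance trend, 5 group means), with Benjamini-Hochberg adjustment over 21765 probe sets and a threshold of 0.05. Errors are SE of the fit unless given as SD. The model was tested on simulated data. Symbols came from the platform annotation (34945 probe sets with 1 symbol, 932 with several and 9160 with none). A gene was represented by its tested probe set with the highest mean log2 signal (11751 genes), and array names can be old.

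Named genes were the 14 largest rises and 14 largest falls among called genes with 1 symbol whose brighter group averaged 200 or more and whose groups did not overlap, ranked with signals under 50 set to 50 and without predicted genes. The other inhibitors had 4 per direction. Of each list the called members and a few in list order were named, with all ERK feedback genes and the study's 4 genes. Further members, such as those called with the block, were named after their values were seen. Members and lists were chosen with earlier results of these data known. Same-numbered DMSO and UO126 arrays deviated together from their group means (r = 0.419, 0.235 and 0.223 for numbers 1, 2 and 3), which is the source of the pairing, since the labels do not state a shared experiment. The fit with the number as a block is therefore given where it changes a call. Other alternatives were quantile normalization, centring, filters, a pseudocount, floors, no trend, fewer groups and leaving out each array.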

Additional observations from a re-analysis of the deposited data

How the results depend on the processing

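Under the alternatives 202 genes were recomputed, and none of the 81 called against DMSO reversed its direction. Reversals were not counted for genes not called. Of the 81 called against DMSO, 40 kept the call in each of 18 alternatives and 41 lost it in at least 1. The replicate block ended none of these calls and added 32 of the 121 genes not called. The count of 584 probe sets became 280 with arrays centred on their median, 245 with the DMSO and UO126 arrays only and 1032 with the replicate block, and it ranged from 321 to 417 with single arrays left out. Against SB202190 the count of 1782 became 1003 with centred arrays and ranged from 1033 to 1531 with single arrays left out. Against LY294002 the count of 1439 became 806 with centred arrays and 2525 with the replicate block, and ranged from 771 to 1121 with single arrays left out. The 1.4-fold count of 1359 became 9972 with no filter on low signals. The cause was not tested, except that fewer arrays or more probe sets enter these fits by construction.

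The medians of 25 lists were recomputed under each alternative. In all, 8 of the recomputed values, some of them of the same list, moved by more than the spread between arrays. The BMP median became 0.032 with a mean of 100 over all arrays and 0.12 to 0.19 without single arrays, the TGF-beta median -0.18 with all probe sets of a gene averaged, and the inflammatory median -0.17 with signals under 50 set to 50. The median of keratins and epithelial-type genes became -0.85 with a mean of 100 and -0.14 with signals under 50 set to 50. Without single arrays the Wnt median ranged from 0.097 to 0.32 and the G1 median from -0.0505 to 0.0582. Signals under 50 lie near background on these arrays, so changes there have no reliable size.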
